A study of Mus musculus with 9 samples.

Results

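Mast cells store serine proteases in their granules, and 10 genes of that equipment were followed in the stomach of newborn mice. They are Mcpt4, Cma1, Cpa3, Tpsb2 and Tpsab1, known from connective tissue type mast cells, Mcpt1 and Mcpt2, known from the mucosal type, Mcpt8 of basophils, and Ms4a2 and Fcer1a, which encode chains of the high-affinity IgE receptor. The genes were chosen by name and read by 11 of the 55681 non-control probes of the array, Tpsb2 by 2 probes and each other gene by 1. The data come from 5 stomachs of knockout mice that lack C/EBPβ (KO 1 to KO 5), the leucine zipper protein made from Cebpb, and 4 stomachs of wild-type mice (WT 1 to WT 4). Each mouse was killed at birth, and its total RNA was hybridised to 1 Agilent array in 1 colour. The sources used here give neither the strain, nor the deleted part of the gene, nor any transgene or treatment, and one label calls the mice old. The whole organ was profiled, so fewer mast cells and less RNA per mast cell cannot be told apart in any value below.

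Connective tissue mast cells sit in the submucosa, the serosa and the skin and carry chymases, tryptases and the carboxypeptidase encoded by Cpa3 bound to heparin. Mucosal mast cells sit in the epithelium of the gut and carry the chymases encoded by Mcpt1 and Mcpt2, and they increase in number during worm infections. In cultured mouse mast cells, TGF-beta is known to turn on the mucosal chymases. C/EBP factors are known for their part in the choice between the basophil and mast cell lineages.

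Every knockout stomach had more Mcpt2 signal than every wild-type stomach, while the estimates for Mcpt4, Cma1, Cpa3 and Tpsb2 were on the lower side. None of these 5 differences passed the test over all genes. Set against each of the 4 connective tissue proteases on the same array, however, Mcpt2 was higher in knockout. The differences were 2.18 to 2.77 on the log2 scale over all arrays, and all 4 passed (exact permutation, adjusted p = 0.0106 to 0.0159). The 4 pairs share Mcpt2, so they are not 4 separate results. This comparison was chosen with earlier results of these data known. On WT 4 Mcpt2 was not well above background, and with dim values raised to the lowest signal well above background the differences were 1.78 to 2.37. Another background correction adds 50 to each signal, which makes log2 differences of dim signals smaller. Under it the pair differences were 1.19 to 1.56, of which 2 passed. Without KO 5 and WT 4 together they were 2.12 to 2.31, of which 0 passed (adjusted p = 0.0571). WT 4 had little signal of all 5 genes, and the size of most single differences depended on it. Mcpt1 and Tpsab1 were well above background on 2 knockout arrays each and on no wild-type array, and Mcpt8, Ms4a2 and Fcer1a on none of the 9.

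The probes were 60 bases long and lie in transcribed sequence of the genes, with coordinates on mouse build mm9 as the array design gives them. Of the 10 genes 5 lie in the chymase locus of chromosome 14, with their probes within 141 kb. In that order along the chromosome they are Cma1 (chr14:56561491-56562550, minus strand), Mcpt1 (chr14:56638928-56638987, plus), Mcpt2 (chr14:56663261-56663320, plus), Mcpt4 (chr14:56678589-56678648, minus) and Mcpt8 (chr14:56702300-56702674, minus). The probes of Cma1 and Mcpt8 cover 1060 and 375 bases of the genome and so bridge an intron. Tpsab1 (chr17:25480640-25480699, minus) and Tpsb2 (chr17:25504819-25504878 and chr17:25504493-25504552, plus) are neighbouring tryptase genes with probes 23.8 kb apart. Cpa3 was read at chr3:20115674-20115733, Ms4a2 at chr19:11691701-11691760 and Fcer1a at chr1:175151438-175151497, all on the minus strand.

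Chymase and tryptase genes resemble each other, so the probes' letters were compared with those of the array's other probes. Transcripts were not compared, so the letters cannot show how far a probe tells relatives apart. The Mcpt1 and Mcpt2 probes overlap in 17 bases, the last 17 of the Mcpt1 probe and the first 17 of the Mcpt2 probe, and within these they differ at 2 positions, printed in capitals. The Mcpt4 probe shares a run of 27 bases with the probe of the pseudogene Mcpt-ps1, and the shared run is shown. The probe of Cma1 is shown because it bridges an intron, and those of Tpsab1 and Tpsb2 (the more 5′ of its 2) because they read neighbouring genes.
Mcpt1: aagtagctgaGaagTct
Mcpt2: aagtagctgaAaagCct
Mcpt4: tctgtgatgatggactgttccctgtaa
Cma1: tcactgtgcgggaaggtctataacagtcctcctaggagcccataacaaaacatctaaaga
Tpsab1: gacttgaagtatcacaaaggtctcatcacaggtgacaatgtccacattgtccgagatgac
Tpsb2: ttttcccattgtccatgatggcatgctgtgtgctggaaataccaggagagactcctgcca
Apart from the Mcpt4 probe, the longest run that a probe of these genes shared with the probe of any other gene was 12 to 15 bases. Binding of transcripts of related genes to a probe was not tested.

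Signals are given as processed signal, the scanner's background-subtracted brightness of a spot, and levels as its log2 minus that of the array's 75th percentile. That percentile ran from 285.5 to 472.4 on the knockout arrays and from 221.2 to 411.7 on the wild-type arrays, and 50.9% to 57.2% of spots were well above background, a flag the scanner software sets. Genes entered the test when 4 or more of the 9 arrays had a probe well above background. This held for 21730 genes, and for 5 of the 10 mast cell genes, namely Mcpt2, Mcpt4, Cma1, Cpa3 and Tpsb2. Cebpb, the deleted gene, fell by 5.48 ± 0.30 on the log2 scale (SE; limma adjusted p = 0.000123) and separated the genotypes on all 9 arrays. Over all genes 44 changed (0.202%), 27 of them higher (0.124%) and 17 lower (0.0782%) in knockout, and the median difference was 0.0050. Markers of squamous epithelium (10 of 10) and of glandular epithelium (8 of 9) passed the filter, so both parts of the labelled tissue were measured.

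Mcpt2, which encodes a chymase of mucosal mast cells, had processed signals of 146, 146, 99.1, 326.5 and 174.5 on KO 1 to KO 5, against 70.3, 69.6, 53.2 and 4.93 on WT 1 to WT 4. Every knockout array lay above every wild-type array, and WT 4 lay far below the other wild-type arrays and was not well above background. As log2 levels the knockout arrays read −1.01, −0.97, −2.25, −0.48 and −1.39, against −2.55, −2.30, −2.48 and −5.49 on the wild-type arrays. On this scale KO 3 lay just above WT 2, so the gap between the groups was narrow.

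The mean level of Mcpt2 was −1.22 ± 0.66 (SD, n = 5) in knockout and −3.21 ± 1.53 (SD, n = 4) in wild type. The difference was 1.98 ± 0.64 (SE), or 3.96-fold. It missed the threshold over all genes (limma adjusted p = 0.409; unadjusted p = 0.0113), while permuting the genotype labels of the arrays (exact, two-sided) gave p = 0.0159. Mcpt2 ranked 597 of the 21730 genes by p. Without WT 4 the difference was 1.22 (limma adjusted p = 0.144), and with dim values raised to the lowest signal well above background on their array it was 1.58.

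Of the 5 genes tested, 0 changed by limma with Benjamini-Hochberg adjustment, against 0.202% of all genes. At an unadjusted p below 0.05 Mcpt2 was the 1 member of the 5, against 8.72% of all genes (5.05% higher and 3.67% lower in knockout). Mcpt2 was also the 1 member for which every knockout array lay above every wild-type array, against 2.31% of all genes. For 0 of the 5 did every knockout array lie below every wild-type array, against 1.08% of all genes.

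**Figure D1:**
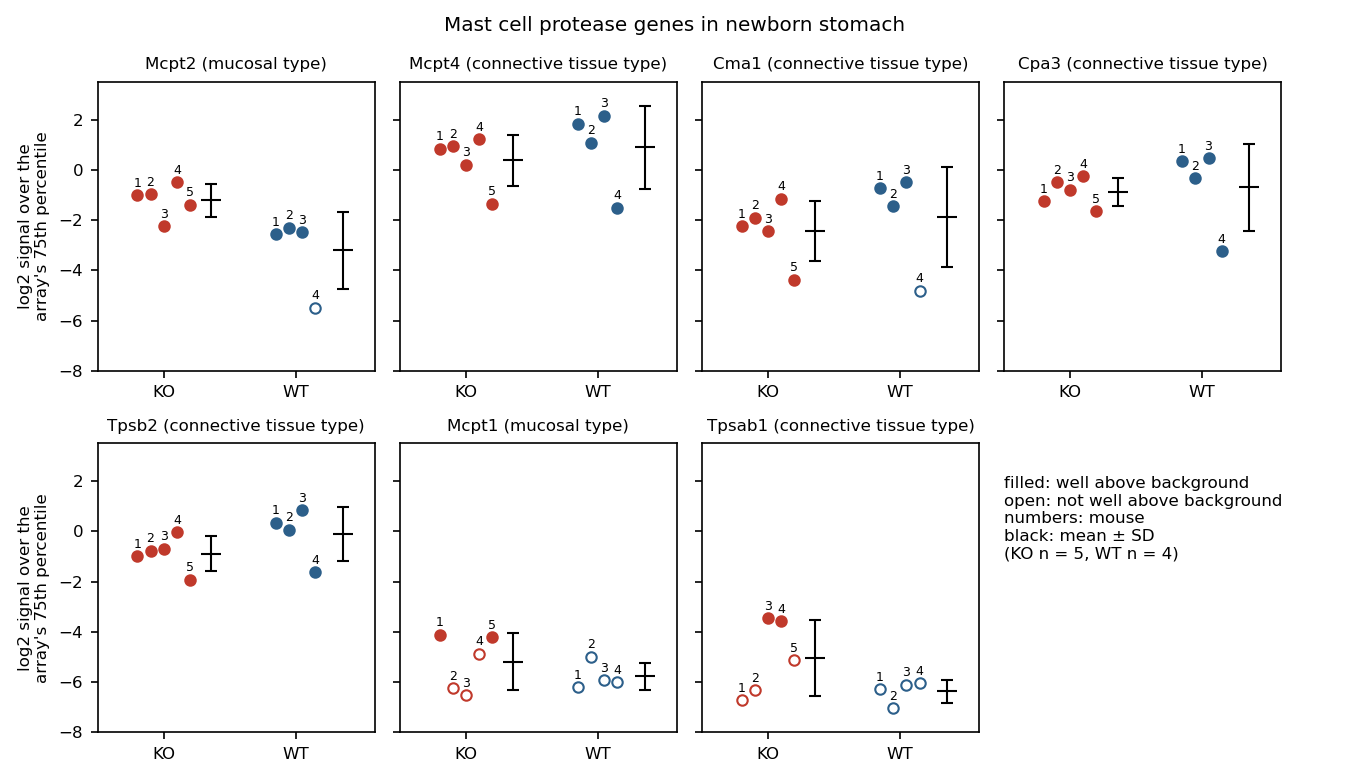
Log2 signal relative to the array's 75th percentile (vertical axis) of 7 mast cell protease genes on each array, KO left and WT right in each panel, with mouse numbers beside the points and mean ± SD in black (KO n = 5, WT n = 4). Open points are not well above background. Mcpt2 separates the groups, whereas Mcpt4, Cma1, Cpa3 and Tpsb2 overlap, with KO 5 and WT 4 the lowest arrays of their groups.

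Mcpt4 encodes the main chymase of connective tissue mast cells in the mouse. The processed signals read 523.7, 544.3, 545.6, 1059 and 180.4 on KO 1 to KO 5, against 1468, 725.2, 1331 and 78.05 on WT 1 to WT 4. The groups overlapped, since KO 4 lay above WT 2 and the lowest array of all was WT 4. The mean log2 level was 0.37 ± 1.03 (SD, n = 5) in knockout and 0.89 ± 1.66 (SD, n = 4) in wild type. The difference of −0.52 ± 0.76 (SE) did not pass (limma adjusted p = 0.923; exact permutation p = 0.548). Without WT 4 it was −1.32 (limma adjusted p = 0.275).

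Cma1 encodes a further chymase of connective tissue mast cells, the closest relative of the human chymase by sequence. The processed signals read 61.8, 76.2, 87.0, 205.3 and 22.1 on KO 1 to KO 5, against 247.1, 125.7, 211.5 and 7.89 on WT 1 to WT 4. WT 4 was not well above background, and KO 5 was by far the lowest knockout array. The mean log2 level was −2.42 ± 1.19 (SD, n = 5) in knockout and −1.87 ± 2.00 (SD, n = 4) in wild type. The difference was −0.55 ± 0.90 (SE; limma adjusted p = 0.937; exact permutation p = 0.579), and without WT 4 it was −1.53 (limma adjusted p = 0.266).

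Cpa3 encodes mast cell carboxypeptidase A, which trims peptides after the chymases have cut them. The processed signals read 124.3, 202.7, 273.3, 384.4 and 145.5 on KO 1 to KO 5, against 522, 270.8, 412.5 and 23.4 on WT 1 to WT 4. Relative to the 75th percentile, KO 4 lay just above WT 2, and WT 4 lay below all knockout arrays. The mean log2 level was −0.88 ± 0.57 (SD, n = 5) in knockout and −0.69 ± 1.74 (SD, n = 4) in wild type. The difference was −0.19 ± 0.69 (SE; limma adjusted p = 0.976; exact permutation p = 0.857). It was −1.04 without WT 4 (limma adjusted p = 0.184), but 0.06 with the slide as a block, 0.15 without WT 1 and 0.19 without WT 3, so its direction was not settled.

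Tpsb2 encodes the tryptase mMCP-6, which forms tetramers on heparin. The probe used for the test read 146.6, 166.6, 291.7, 443.7 and 120.5 on KO 1 to KO 5, against 523.4, 358.4, 528.6 and 71.1 on WT 1 to WT 4. Relative to the 75th percentile all 5 knockout arrays lay below WT 1, WT 2 and WT 3, while WT 4 lay among the knockout arrays, above KO 5. The second probe, printed above, read 41.7, 56.5, 171, 286.5 and 43.2 in knockout, against 233, 194.4, 255.7 and 18.5 in wild type. The mean log2 level of the tested probe was −0.89 ± 0.68 (SD, n = 5) in knockout and −0.10 ± 1.07 (SD, n = 4) in wild type. The difference was −0.79 ± 0.50 (SE; limma adjusted p = 0.742; exact permutation p = 0.214), and −0.78 ± 0.73 for the second probe (limma adjusted p = 0.860). Without WT 4 the tested probe gave −1.30 (limma adjusted p = 0.149).

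**Figure D2:**
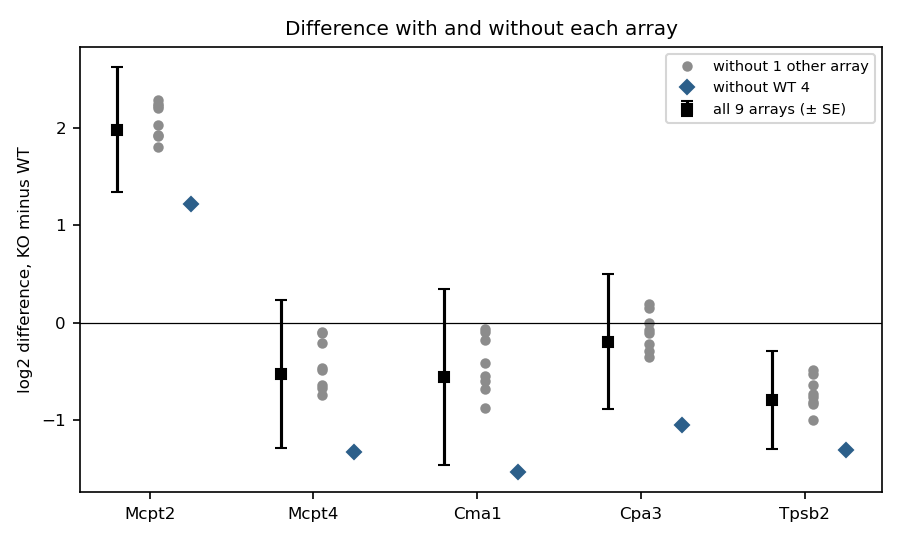
Log2 difference, KO minus WT (vertical axis), of the 5 tested genes over all 9 arrays (black squares, ± SE), without each other array in turn (grey) and without WT 4 (blue diamonds). Without WT 4 the 4 connective tissue proteases lie between −1.53 and −1.04 and Mcpt2 at 1.22.

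WT 4 was the lowest of all 9 arrays for Mcpt2, Mcpt4, Cma1 and Cpa3, and KO 5 for Tpsb2. Over all genes tested, WT 4 was the lowest array for 22.4%. KO 5 was the lowest knockout array for the 4 connective tissue proteases, while for Mcpt2 it lay above KO 3. Both arrays were on slide 1, which held KO 4, KO 5, WT 3 and WT 4. Within that slide the difference was 3.05 for Mcpt2, −0.39 for Mcpt4, −0.11 for Cma1, 0.43 for Cpa3 and −0.58 for Tpsb2. These values lean on WT 4, where Mcpt2 and Cma1 were not well above background, so those of Mcpt2 and Cma1 have no measured size. Within slide 4, with KO 2, WT 1 and WT 2, it was 1.46 for Mcpt2, −0.53 for Mcpt4, −0.82 for Cma1, −0.50 for Cpa3 and −0.98 for Tpsb2. KO 1 and KO 3 had a slide each. Signal of Y-linked genes was low on KO 2, KO 4 and KO 5 and high on all other arrays, so sex and genotype were not balanced. KO 2, KO 4 and KO 5 were also the only knockout arrays that shared a slide with wild type. Within a slide, sex and genotype thus cannot be told apart. Once Y-linked signal entered the model, the difference of Mcpt2 was 1.53 (limma adjusted p = 1.00).

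The comparison between mast cell types asks whether the mucosal gene moved apart from the connective tissue genes within the same stomach. It was chosen with earlier results of these data known, so its p-values are not those of a question fixed beforehand. For it, the log2 level of the connective tissue gene was subtracted from that of the mucosal gene on each array, and these differences were compared between genotypes with an exact two-sided permutation test. The scaling to the 75th percentile cancels in such a difference. Of the 10 possible pairs 4 could be computed, all of them with Mcpt2, and p-values were adjusted over these 4. Because the pairs share Mcpt2 and the connective tissue genes varied together, they are not 4 separate results. Mcpt2 was not well above background on WT 4, so the WT 4 value of each pair, and the folds that use it, have no measured size. Brightness of different probes has no common scale, so the sign of a pair difference has no meaning and only its change between genotypes is read.

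Mcpt2 minus Mcpt4 was −1.84, −1.90, −2.46, −1.70 and −0.05 on KO 1 to KO 5, against −4.38, −3.38, −4.64 and −3.99 on WT 1 to WT 4. KO 5 was the highest array, and all knockout values exceeded those of WT 1, WT 2 and WT 3. With its dim value raised, WT 4 read −2.38 and lay just above KO 3. The mean was −1.59 ± 0.91 (SD, n = 5) in knockout and −4.10 ± 0.55 (SD, n = 4) in wild type. The groups differed by 2.51, or 5.69-fold (exact permutation p = 0.00794, the smallest this design can give; adjusted p = 0.0106).

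Mcpt2 minus Tpsb2 was −0.01, −0.19, −1.56, −0.44 and 0.53 on KO 1 to KO 5, against −2.90, −2.36, −3.31 and −3.85 on WT 1 to WT 4. KO 3 was the lowest knockout array, and with its dim value raised WT 4 read −2.25, still below it. The mean was −0.33 ± 0.77 (SD, n = 5) in knockout and −3.11 ± 0.63 (SD, n = 4) in wild type, a 6.84-fold difference (exact permutation p = 0.00794; adjusted p = 0.0106).

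Mcpt2 minus Cma1 was 1.24, 0.94, 0.19, 0.67 and 2.98 on KO 1 to KO 5, against −1.81, −0.85, −1.99 and −0.68 on WT 1 to WT 4. KO 5 was again the highest array, and on WT 4 neither gene was well above background. The mean was 1.20 ± 1.07 (SD, n = 5) in knockout and −1.33 ± 0.66 (SD, n = 4) in wild type, a 5.80-fold difference (exact permutation p = 0.00794; adjusted p = 0.0106).

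Mcpt2 minus Cpa3 was 0.23, −0.47, −1.46, −0.24 and 0.26 on KO 1 to KO 5, against −2.89, −1.96, −2.95 and −2.25 on WT 1 to WT 4. Among the arrays with both genes measured, KO 3 and WT 2 were closest to each other, and with its dim value raised WT 4 read −0.65, above KO 3. The mean was −0.34 ± 0.70 (SD, n = 5) in knockout and −2.51 ± 0.49 (SD, n = 4) in wild type, a 4.52-fold difference (exact permutation p = 0.0159; adjusted p = 0.0159).

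**Figure D3:**
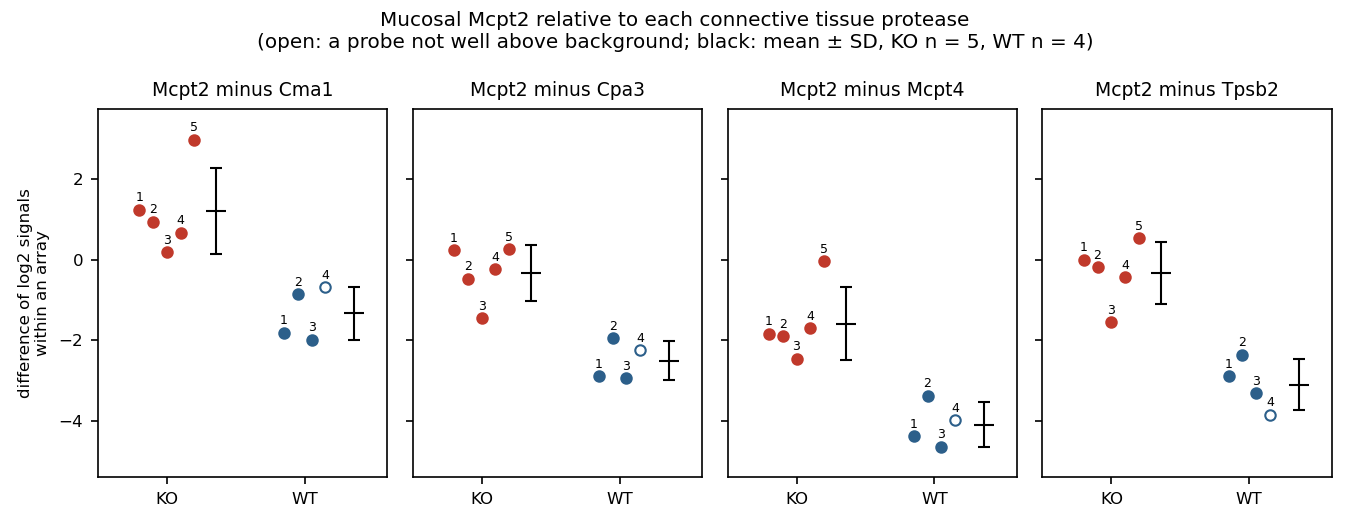
Log2 level of Mcpt2 minus that of Cma1, Cpa3, Mcpt4 or Tpsb2 on the same array (vertical axis), KO left and WT right, with mouse numbers beside the points and mean ± SD in black (KO n = 5, WT n = 4). Open points have a gene that was not well above background. In all 4 panels the 5 KO points lie above WT 1, WT 2 and WT 3. The WT 4 point, also drawn lower, has no measured size.

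Without WT 4 the pair differences were 2.76 for Cma1, 2.27 for Cpa3, 2.55 for Mcpt4 and 2.53 for Tpsb2 (exact permutation, adjusted p = 0.0179 each). Over all arrays the groups did not overlap in any of the 4 pairs, so leaving out 1 array could not undo a pass. Within slide 1 the pair differences were 3.16, 2.61, 3.44 and 3.63 for Cma1, Cpa3, Mcpt4 and Tpsb2, and within slide 4 they were 2.27, 1.95, 1.98 and 2.44 in the same order. The slide 1 values use WT 4 and so have no measured size. By limma over the 4 pairs without a block, the adjusted p lay between 0.000245 and 0.000738. With the slide as a block it lay between 0.000299 and 0.00319 (limma over the 4 pairs). With Y-linked signal in the model it lay between 0.00555 and 0.0142 (limma). Limma and the exact permutation are different tests, so these values are to be read only against the limma values without a block. On both slides the knockout arrays had low and the wild-type arrays high Y-linked signal. The values within slides and with the slide as a block thus cannot tell genotype from sex. With dim values raised to the lowest signal well above background, WT 4 lay above KO 3 for the pairs with Cpa3 and Mcpt4. The differences were then 2.37 for Cma1, 1.78 for Cpa3, 2.11 for Mcpt4 and 2.37 for Tpsb2, and all 4 pairs still passed (adjusted p = 0.0212 to 0.0318). With another background correction (normexp, with an offset of 50 added to each signal) and quantile scaling 2 of the 4 passed. Such an offset makes log2 differences of dim signals smaller. There the differences were 1.35 for Cma1 and 1.56 for Tpsb2 (adjusted p = 0.0159 each), but 1.19 for Cpa3 (adjusted p = 0.0741) and 1.42 for Mcpt4 (adjusted p = 0.0794). Without KO 5 and WT 4 together the differences were 2.12 to 2.31 and 0 of the 4 passed (exact permutation, adjusted p = 0.0571 each), over the 35 splits of the 7 arrays that remain.

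**Figure D4:**
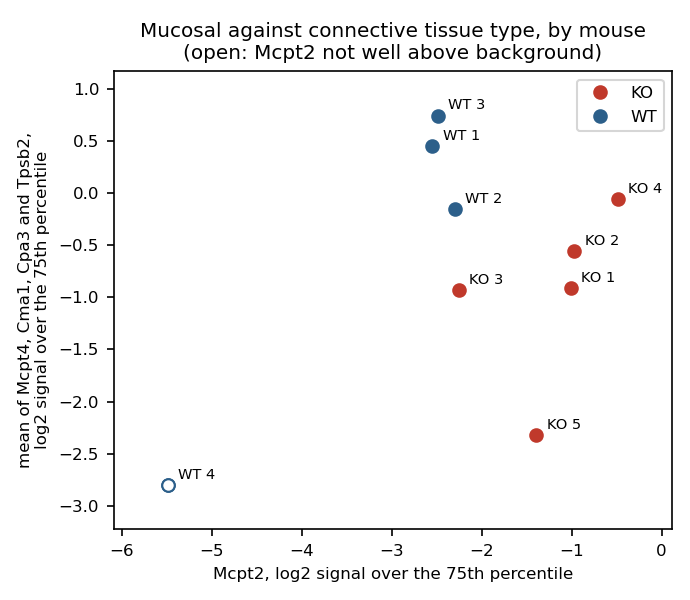
Each point is a mouse, with the log2 level of Mcpt2 on the horizontal axis and the mean log2 level of Mcpt4, Cma1, Cpa3 and Tpsb2 on the vertical axis. All KO points lie to the right of all WT points, and KO 5 and WT 4 have the lowest vertical values, −2.32 and −2.80, but differ in Mcpt2 (−1.39 and −5.49).

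Among themselves the connective tissue proteases varied together from mouse to mouse. After the mean of each genotype was taken off, Pearson's r between any pair of Mcpt4, Cma1, Cpa3 and Tpsb2 was 0.93 to 0.99 over the 9 arrays, and 0.84 to 0.98 over the 8 arrays without WT 4. Mcpt2 with each of them gave 0.77 to 0.86 over 9 arrays, but 0.24 to 0.41 without WT 4. All of these values share the arrays and their scaling, and they are given as a description. The closest pair was Mcpt4 with Cma1 (0.99, and 0.98 without WT 4), the 2 connective tissue chymases of chromosome 14.

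Of the genes whose arrays deviated most like the mean of the connective tissue proteases (15482 genes with a symbol, 9 arrays), 1 is a neighbour in the chymase locus. Cma2, a chymase gene, had r = 0.99, and it was the most alike of all genes without WT 4 (r = 0.99 over 8 arrays). Its log2 level was 0.08, 0.33, −0.04, 0.63 and −0.83 on KO 1 to KO 5, against 1.13, 0.59, 1.37 and −0.59 on WT 1 to WT 4. The order of the arrays was thus much like that of Mcpt4, with KO 5 and WT 4 at the bottom of their groups. The others of the 10 were Tyms-ps, Casp14, Dsg1a, Igtp, Defb1, Clec11a, Fam214a, Tgfbi and Elovl6, with r between 0.98 and 0.99. Without KO 5 and WT 4 together, over 7 arrays, their r was 0.80 to 0.94, and that of Cma2 was 0.99. Casp14 is a caspase and Dsg1a a desmosomal cadherin of keratinised epithelium, and Clec11a encodes a growth factor for blood and bone cells.

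Mcpt2 had other company. The 5 genes most like it were Cdca2, Ncapd2, Eri2, Kif4 and Agtr1b (r = 0.99 each over 9 arrays, and 0.95 to 0.99 without WT 4). Ncapd2 encodes a condensin subunit and Kif4 a kinesin of dividing cells, and Cdca2 acts on chromatin at mitosis. For Kif4 the log2 level was −0.67, −0.66, −1.31, −0.47 and −0.85 on KO 1 to KO 5, against −0.15, −0.10, −0.06 and −2.23 on WT 1 to WT 4. KO 3 was thus the lowest knockout array and WT 4 the lowest wild-type array, as for Mcpt2, while between the genotypes Kif4 lay the other way on WT 1 to WT 3.

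The proximal promoters were looked at because Cma1, Cpa3 and Mcpt4 varied together from mouse to mouse. RefSeq (GRCm38.p6) gave an upstream sequence for 7 of the 10 genes, namely Cma1, Cpa3, Mcpt1, Mcpt4, Mcpt8, Ms4a2 and Fcer1a. The 250 bases before the gene start are printed for the 3 proteases and for Mcpt1, the mucosal relative, read 5′ to 3′ on the gene's strand. Capitals mark GATAA or its reverse complement TTATC, the core bound by GATA factors, which are known regulators of mast cells.
Cma1: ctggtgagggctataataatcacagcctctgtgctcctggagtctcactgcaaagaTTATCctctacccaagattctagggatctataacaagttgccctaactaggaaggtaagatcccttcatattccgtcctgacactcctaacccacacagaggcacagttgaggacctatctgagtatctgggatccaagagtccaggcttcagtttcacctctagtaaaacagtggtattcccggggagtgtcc
Cpa3: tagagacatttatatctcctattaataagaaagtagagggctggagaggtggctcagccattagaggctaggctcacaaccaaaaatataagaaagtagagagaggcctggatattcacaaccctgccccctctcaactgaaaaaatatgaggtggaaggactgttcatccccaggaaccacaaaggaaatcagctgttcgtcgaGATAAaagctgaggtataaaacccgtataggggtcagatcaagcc
Mcpt4: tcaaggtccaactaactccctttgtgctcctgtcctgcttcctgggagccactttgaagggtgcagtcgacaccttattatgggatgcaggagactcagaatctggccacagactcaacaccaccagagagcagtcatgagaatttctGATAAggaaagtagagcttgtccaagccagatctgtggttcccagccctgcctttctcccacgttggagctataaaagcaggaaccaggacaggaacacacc
Mcpt1: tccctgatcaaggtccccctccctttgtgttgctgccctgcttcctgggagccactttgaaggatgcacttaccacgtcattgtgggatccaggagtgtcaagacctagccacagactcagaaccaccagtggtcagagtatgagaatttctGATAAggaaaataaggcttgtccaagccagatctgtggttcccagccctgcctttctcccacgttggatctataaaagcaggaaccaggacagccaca
They lie at chr14:55944676-55944925 (Cma1, minus), chr3:20242182-20242431 (Cpa3, minus), chr14:56062311-56062560 (Mcpt4, minus) and chr14:56017714-56017963 (Mcpt1, plus).

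The upstream sequences of Mcpt1 and Mcpt4 were identical at 213 of 250 bases (85.2%), with a shared run of 53 bases, whereas all other pairs among the 7 genes were identical at 55.2% to 65.6%. The mucosal Mcpt1 and the connective tissue Mcpt4 thus share most of this window, GATAA included, at −98 and −102 from the start. GATAA on either strand was found upstream of 6 of the 7 genes, all but Mcpt8, against 22.6% of 32851 upstream sequences of the same length. In Cpa3 it started at −45, in Cma1 at −194, in Fcer1a at −92, and in Ms4a2 it occurred 3 times. CANNTG, the E-box that MITF and other helix-loop-helix factors bind, was found in 4 of the 7, against 66.2% of all. TTNNGNAA, a short form of the C/EBP motif, was found in 1 of the 7, Fcer1a, against 36.8% of all. These matches are letters in a window and no evidence of binding.

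The remaining genes of the set were near or below background. Tpsab1 encodes the tryptase mMCP-7, which C57BL/6 mice are known to lack because of a changed splice site while other strains make it. The processed signals read 2.79, 3.58, 43.3, 38.3 and 13.2 on KO 1 to KO 5, against 5.29, 2.59, 4.34 and 3.36 on WT 1 to WT 4. Only KO 3 and KO 4 were well above background, so no fold is given, and the part of strain in it was not tested. Over these 2 arrays the neighbouring Tpsb2 had the highest signals within knockout.

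Mcpt1, the other mucosal chymase, had processed signals of 16.9, 3.80, 5.17, 15.6 and 24.6 on KO 1 to KO 5, against 5.55, 10.8, 4.93 and 3.47 on WT 1 to WT 4. It was well above background on KO 1 and KO 5 only. Without the filter on dim probes the 5 pairs with Mcpt1 and the pair of Mcpt2 with Tpsab1 had adjusted p between 0.381 and 0.564 (exact permutation, over 10 pairs), and the 4 pairs described before passed (adjusted p = 0.0265 to 0.0397).

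Mcpt8, a granule protease that marks basophils in the mouse, had processed signals of 3.41 to 6.48 in knockout and 3.04 to 4.87 in wild type. Fcer1a, the IgE-binding chain of the receptor, read 3.32 to 6.12 in knockout and 2.87 to 10.2 in wild type. Ms4a2, its beta chain, which strengthens the signal, read 20.2 on KO 2 and 3.62 to 5.33 on the other knockout arrays, against 2.92 to 4.85 in wild type. None of these 3 genes was well above background on any array. The defining surface markers of mast cells among the 10 genes were thus at background, while the granule proteases of the connective tissue type, except Tpsab1, passed the filter.

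Other genes of the mast cell were read from lists of related function. Of 11 further genes of the chymase and granzyme locus 3 were tested and all 3 had estimates on the lower side, with 0 past the test. They were Cma2 (−0.59 ± 0.41 SE; limma adjusted p = 0.771), Ctsg, the cathepsin G gene (−0.52 ± 0.49), and Mcpt-ps1 (−0.44 ± 0.76). Mcpt9 and the 7 granzyme genes of the locus were not tested, being too dim. The median of the 3 tested, −0.52, is the value of Ctsg. Its estimate was −0.04 with normexp and quantile scaling and 0.08 with the slide as a block. Over all genes the median was 0.0050, and 10675 of 21730 genes had lower estimates. Of 7 tryptase relatives 2 were tested and neither passed, Prss28 at −0.35 ± 0.20 and Prss33 at −0.09 ± 0.22.

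Genes of granule matrix, amines and eicosanoids were all measured (13 of 13), with 8 higher and 5 lower estimates, a median of 0.14 and 0 past the test. Hdc, which forms histamine, had log2 levels of −0.07, −0.65, 0.08, −0.44 and 0.06 on KO 1 to KO 5, against −0.87, −1.16, −1.03 and −1.20 on WT 1 to WT 4. Every knockout array lay above every wild-type array, and the difference was 0.86 ± 0.19 (SE; limma adjusted p = 0.192). Some gastric endocrine cells also make histamine. All 8 markers of gastric endocrine cells had higher estimates, with 0 past the test. By limma 7 had an unadjusted p below 0.05, where 5.05% of all genes were higher in knockout. Their summed log2 level, which the bright gene Ghrl leads, was 6.72 to 7.64 in knockout and 5.73 to 6.57 in wild type. The part of these cells in the Hdc value was not tested. Srgn, the core protein that holds heparin in the granule, lay at 0.95 ± 0.34 (SE; adjusted p = 0.449), and Ptgs1, a cyclooxygenase of prostaglandin synthesis, at −0.63 ± 0.15 (SE; adjusted p = 0.235).

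Of 18 surface receptors of mast cells 13 were tested, with 8 higher and 5 lower estimates, a median of 0.12 and 0 past the test. Kit, the receptor of stem cell factor on which mast cells depend, was 1.98, 2.24, 2.19, 1.99 and 1.95 on KO 1 to KO 5, against 1.66, 1.92, 1.41 and 1.58 on WT 1 to WT 4. The groups did not overlap but lay close together (difference 0.43 ± 0.15 SE; limma adjusted p = 0.447). Interstitial cells of Cajal in the stomach wall carry Kit too. Across arrays Kit did not vary like the connective tissue proteases (r = 0.09, and −0.09 without WT 4). Il1rl1, the receptor of interleukin 33, had r = 0.90 (0.95 without WT 4) and ranked 361 of 15482 genes over all arrays. Srgn had r = 0.65 (−0.44 without WT 4). Without KO 5 and WT 4 together r was −0.67 for Kit, 0.81 for Il1rl1 and 0.26 for Srgn. All of these genes were shown after their values were seen. Adora2b, an adenosine receptor, lay at −0.71 ± 0.22 (SE; adjusted p = 0.386), and Itgb7, the integrin chain used for homing to the gut, at 0.54 ± 0.21 (SE; adjusted p = 0.508). Mrgprb2, known from connective tissue mast cells, was among the 5 receptors too dim to test.

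Behind the IgE receptor 11 of 12 kinases and adaptors were tested, with 8 higher and 3 lower estimates, a median of 0.04 and 0 past the test. The smallest p were those of the kinase Lyn (0.56 ± 0.25 SE; limma adjusted p = 0.571), the phosphatase Inpp5d (0.33 ± 0.23) and the kinase Syk (0.16 ± 0.17). Of 13 growth, homing and maturation factors 8 were tested, with 6 higher and 2 lower estimates, a median of 0.35 and 0 past the test. The chemokine gene Cxcl12 lay at 0.64 ± 0.24 (SE; adjusted p = 0.484), Smad3, which carries TGF-beta signals, at 0.35 ± 0.15 and the alarmin gene Il33 at −0.63 ± 0.29.

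Of 15 transcription factors of mast cells and basophils 13 were tested, with 10 higher and 3 lower estimates and a median of 0.20. Cebpb, the deleted gene, was the 1 that changed. Mitf, needed for mast cell development, lay at 0.49 ± 0.22 (SE; limma adjusted p = 0.576) and Runx1 at 0.62 ± 0.31. Of 11 inhibitors of granule proteases 10 were tested, with 7 higher and 3 lower estimates, a median of 0.16 and 0 past the test. Rarres1, a relative of the carboxypeptidase inhibitor latexin, lay at 0.73 ± 0.19 (SE; adjusted p = 0.293), Serpinb1a, an inhibitor of granule serine proteases, at 0.82 ± 0.35, and Serpina3n at −2.78 ± 1.18 (SE; adjusted p = 0.539). The size for Serpina3n rests on dim signals. It was −1.97 with dim values raised and −0.91 with normexp and quantile scaling.

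Markers of other cell types were summed per array to show what else differed between the stomachs. The 4 measured connective tissue proteases summed to log2 levels of 0.03 to 2.20 in knockout, with KO 5 the lowest, and −0.29 to 3.06 in wild type, with WT 4 the lowest. The sum of squamous epithelium (10 of 10 genes tested, 0 called), which the bright gene Lor leads, followed the same order at the bottom. It was 8.56 to 10.05 in knockout, KO 5 the lowest, and 9.01 to 10.71 in wild type, WT 4 the lowest. Single genes differed in part. Krt13 and Krt4 were lowest within knockout on KO 1, and Trp63 and Dsg3 on KO 4. For Trp63 (4.157) and Dsg3 (1.497) WT 4 was the highest wild-type array. The remaining squamous genes were lowest on KO 5 and WT 4 within their groups. Fibroblast genes (8 of 8, 0 called) summed to 9.31 to 9.80 in knockout and 8.49 to 9.67 in wild type, and macrophage genes (11 of 11, 0 called) to 4.78 to 5.22 in knockout and 4.25 to 5.08 in wild type. In both, WT 4 was the lowest of all 9 arrays.

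Glandular epithelium (8 of 9 tested) summed to 10.48 to 11.15 in knockout and 10.07 to 10.84 in wild type, where WT 4 was the highest. Its gene Gkn2 rose by 1.77 ± 0.25 (SE; limma adjusted p = 0.0280). Granulocyte genes (7 of 11 tested) summed to 2.89 to 4.31 in knockout and 4.58 to 4.92 in wild type. Of these genes S100a9 was the 1 that changed, and it fell by 2.77 ± 0.36 (SE; limma adjusted p = 0.0160). Of the 7 genes 3 had higher and 4 lower estimates, with a median of −0.12, and Ltf (0.32), Camp (0.16) and S100a8 (0.11) were on the higher side. Of the defining basophil markers Mcpt8, Prss34, Ccr3 and Il4 were too dim to test, as were Epx and Prg2 of eosinophils. Mesothelium of the outer surface (6 of 6, 0 called) summed to 2.95 to 3.77 in knockout and 3.17 to 3.41 in wild type, a sum that the bright gene Msln leads. Of its genes, named after their values were seen, Lrrn4 read −6.93 on KO 5 and −5.78 on WT 4. Wt1 read −3.21 on KO 5 and −4.26 on WT 4. Each was the lowest of its group, as for the connective tissue proteases. The other mesothelial genes did not share this order. Upk1b was highest within knockout on KO 5 (0.588), and Muc16 and Msln within wild type on WT 4 (0.869 and 3.001). Upk3b was lowest within wild type on WT 4 (−2.179), but within knockout on KO 1 (−1.831). Of fat cell markers 2 of 7 were tested, and Cidec, a lipid droplet gene, rose by 0.96 ± 0.15 (SE; limma adjusted p = 0.0438). Smooth muscle genes (8 of 8 tested) all had lower estimates and lymphocyte genes (5 of 10 tested) 3 higher and 2 lower ones, with 0 past the test in either list. The part of these cells in the protease values was not tested.

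**Figure D5:**
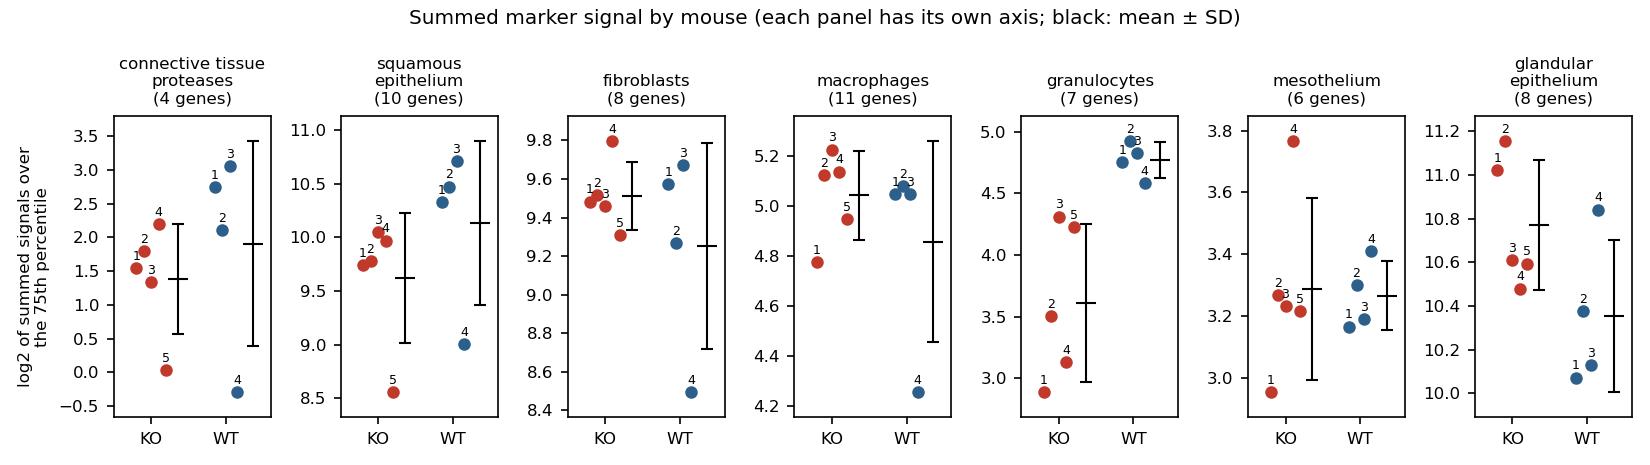
Log2 of the summed signals of a marker list, relative to the array's 75th percentile (vertical axis, with its own range in each panel), on each array, KO left and WT right, with mouse numbers beside the points and mean ± SD in black (KO n = 5, WT n = 4). KO 5 and WT 4 are lowest in their groups both for the connective tissue proteases and for squamous epithelium. The squamous sum is led by Lor, and not all squamous genes share this order. WT 4 is the highest wild-type array for glandular epithelium.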

How the data were processed

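Spot brightness was measured in 1 colour (Cy3) on 9 arrays, 5 KO and 4 WT, 1 per mouse, as the labels number them. Per the file headers, the authors made the processed signal intensity with Agilent Feature Extraction 10.5.1.1 (the submitters' processing notes name 9.1). It was background-subtracted, detrended and not normalized between arrays. The deposited yes or no flags (well above background, saturated, outlier) are other values that the software set, per the file headers. The authors' deposited series matrix holds log2 values. Differences between its arrays followed log2 of the processed signal (r = 1), while what they were centred on is unknown. Its column medians, by mouse number, were 0.0436, 0.217, −0.124, 0.0347 and −0.137 in knockout, and −0.279, −0.161, 0.224 and 0.382 in wild type.

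From these, 3671 control spots of 62976 were left out, spots of a probe averaged, and log2 of the signal taken minus the array's 75th percentile. Through accessions 26762 of the 55681 probes matched RefSeq (GRCm38.p6). Each gene was read from its brightest probe among those well above background on at least 4 arrays and tested with limma 3.58.1 in R 4.3.3 (two-sided, Benjamini-Hochberg over 21730 genes, adjusted p below 0.05). SE is limma's moderated standard error. Pairs and single values were tested with exact two-sided permutations of the arrays. The number of arrays limits precision. Likeness is Pearson's r of levels centred within genotype.

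The genes named are all 10 members, up to 3 genes of smallest p per mast cell list, any list gene past the threshold, Cebpb, and the 10 and 5 genes most alike. The members, lists and the comparison of types were chosen with earlier results of these data known. Alternatives were other background corrections and scalings, filters, probe choices, slide, sex or mouse number in the model, and leaving out arrays. Mouse numbers shared between genotypes did not pair the mice (correlations of same-numbered arrays −0.305, 0.122, 0.153 and −0.482).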

Additional observations from a re-analysis of the deposited data

Results flagged for a closer look

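Within wild type, WT 4 stood far from the other 3 arrays for Mcpt2, at a log2 level of −5.49 against −2.55 to −2.30, and for Srgn, at −1.83 against −0.43 to −0.16. The same held for S100a9, at 3.17 against 4.42 to 4.48. For Itgb7, KO 2 lay at −0.69 against −1.57 to −1.37 on the other knockout arrays, and WT 1 at −2.22 against −1.71 on the other wild-type arrays. For Ptgs1, KO 5 lay at 2.66 against 2.16 to 2.29 on the other knockout arrays. These 6 values were more isolated within their group than Dixon's test allows, out of 70 groups looked at, and chance gives about 1 in 20.

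Genes that did not enter the test showed signal on some knockout arrays. Mcpt1 had a processed signal of 16.9 on KO 1 and 24.6 on KO 5, against 3.47 to 10.8 in wild type. Tpsab1 had 43.3 on KO 3 and 38.3 on KO 4, against 2.59 to 5.29 in wild type. These were the arrays on which the genes were well above background.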

How the results depend on the processing

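The count of member genes called was 0 under every alternative run. The count of all genes called, 44, was 22 with no filter on dim probes, 5 with the slide as a block, 4 with Y-linked signal in the model and 4 with the replicate block, although mouse numbers do not pair the mice. It was 11 to 161 when 1 array was left out, the highest without WT 4, and 159 without KO 5 and WT 4 together, an alternative added after seeing the data, as was raising dim values. Of the 4 pairs with Mcpt2, 4 passed with each single array left out, with the slide as a block, the Y-linked covariate and the replicate block. The passes with 1 array left out were fixed beforehand, because the groups did not overlap in any pair over all arrays. Under normexp and quantile scaling 2 passed, and without KO 5 and WT 4 together 0, where the differences were 2.12 to 2.31 (adjusted p = 0.0571) over 35 splits. The causes were not tested. Asking for signal on all 9 arrays leaves out Mcpt2 and gives no pairs. Scan date split the arrays as the slides did and was not run on its own. Of 31 single genes under the alternatives (675 values), 633 values kept direction and side, 33 lost their call (all of Cidec, Gkn2 and S100a9) and 9 reversed. The reversed were Cpa3 (0.0624) and Ctsg (0.0753) with the slide as a block, Mcpt-ps1 with the replicate block (0.0080), and Prss33 without KO 5 and WT 4 (0.0840). Leaving out 1 array gave −1.04 to 0.19 for Cpa3, −1.14 to 0.11 for Mcpt-ps1 and −0.26 to 0.0966 for Prss33. Signals near background, as those of Mcpt2 and Cma1 on WT 4, limit the size of every difference they enter.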
